A study of Mus musculus with 2 samples.

Results

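The 10 genes described here encode parts of the contractile apparatus of smooth muscle cells and of myofibroblasts, the contractile fibroblasts of healing wounds. They are *Acta2* and *Actg2* (actins), *Myh11* and *Myl9* (myosin chains), *Tagln*, *Cnn1*, *Tpm1*, *Tpm2* and *Lmod1* (proteins that bind and regulate actin filaments) and *Des* (an intermediate filament protein). They were taken by symbol from the gene lists of both libraries, where each has 1 row among 33696 genes. No measured value entered this rule, although earlier results of these data were known when the genes were chosen. Over all barcodes of both libraries, the 10 genes held between 699 (*Cnn1*) and 81352 (*Tpm1*) unique molecular identifiers (UMIs), each of which stands for 1 captured transcript.

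Cells came from neonatal ICR mice, an outbred stock, whose hindlimb digits 2 and 4 were amputated through the middle phalanx (P2) at postnatal day (PN) 3 and received an agarose bead at PN7, either coated with the growth factor FGF8 (500 ng/µl) or with 0.1% BSA as the control. At PN8, 24 h after the bead, the epithelium was taken off, the tissue beyond the bone stump was dissociated, and 20 digits from 5 mice, males and females, were pooled for each treatment. Each treatment is thus 1 library, no test across samples was possible, and treatment, pool of animals and library cannot be told apart. An FGF8 bead leads to a joint in only some digits, and the sources used here give no outcome for the digits of the pool.

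Mural cells, the smooth muscle cells and pericytes of vessel walls, contract by sliding myosin along actin filaments that tropomyosin, calponin and transgelin decorate. Fibroblasts in wounds can take up part of this program, and *Acta2* is the usual mark of such myofibroblasts, whereas *Myh11* is held to be specific to smooth muscle and *Des* to muscle and mural cells. Many promoters of the program carry CArG boxes, which are bound by serum response factor (SRF) together with partners that sense the state of actin.

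The sequences before the annotated transcription starts are shown first, for the matched members that hold a CArG box there. RefSeq promoter sequences (GRCm38.p6) were matched for 7 of the 10 genes; *Tagln*, *Actg2* and *Myh11* were not matched. In the 250 bases before the start, the strict box, in which all 6 inner bases are A or T, was found in 1 of the 7 and in 482 of 32851 promoters of the table (1.47%). The strict or a relaxed box, in which 5 of the 6 are A or T, was found in 2 of the 7 and in 8.59% of all promoters. Both of these members held 2 boxes, and 0.670% of all promoters held 2 or more. The pattern reads alike on both strands, and no boxes overlapped in the sequences shown. The first is *Acta2* (chr19:34255374-34255623, minus strand) and the second *Myl9* (chr2:156775214-156775463, plus strand), 5′ to 3′, with the boxes in capitals:
Acta2: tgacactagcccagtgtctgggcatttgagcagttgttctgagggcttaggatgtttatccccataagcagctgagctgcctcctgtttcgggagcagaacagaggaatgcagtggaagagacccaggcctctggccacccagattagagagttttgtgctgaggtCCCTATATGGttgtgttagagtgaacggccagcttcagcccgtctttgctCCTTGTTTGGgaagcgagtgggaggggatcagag
Myl9: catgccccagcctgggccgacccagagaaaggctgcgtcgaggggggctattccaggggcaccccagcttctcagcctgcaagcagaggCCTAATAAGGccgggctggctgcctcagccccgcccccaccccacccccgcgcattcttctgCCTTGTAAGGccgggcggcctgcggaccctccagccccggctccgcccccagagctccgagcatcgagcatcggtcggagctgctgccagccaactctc
The *Acta2* boxes, CCCTATATGG and CCTTGTTTGG, are both of the relaxed form and begin 84 and 34 bases before the start. In *Myl9*, the strict box CCTAATAAGG begins 161 bases and the relaxed box CCTTGTAAGG 99 bases before the start. A match describes these letters only, and the lack of one in *Cnn1*, *Tpm1*, *Tpm2*, *Des* and *Lmod1* says nothing of sequence outside this window. The genes themselves lie, in GRCm39, at chromosome 19, 34217737 to 34232990 on the minus strand (*Acta2*) and at chromosome 2, 156617084 to 156623579 on the plus strand (*Myl9*).

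The FGF8 library held 7249 barcodes and 124889213 UMIs in all, and the BSA library held 3703 barcodes and 67739460 UMIs, of which 6715 and 3252 cells passed the cell filters. Only 6 cell barcodes occurred in both libraries. The sexes were mixed unevenly, since 24.6% of the FGF8 cells with a sex call and 79.3% of such BSA cells were female, so ratios are also given within each sex. Cells were clustered without the 10 genes and without 3 related lists among the features, so that these genes did not draw the classes. A class was called X-like only from marker genes that exclude the 10.

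Fibroblast-like cells were the largest class, with 3322 FGF8 and 1715 BSA cells, and mural-like cells numbered 281 and 182. All 14 fibroblast markers were above 10 UMIs per 1000000 UMIs of the class (CPM) in fibroblast-like cells, and all 14 mural markers in mural-like cells. The mural markers summed to 12494 CPM in FGF8 and 16046 CPM in BSA mural-like cells, against 987 and 1355 CPM in fibroblast-like cells. Among the genes that led the mural-like cluster were *Rgs5*, *Higd1b* and *Abcc9* of the marker list and, although left out of the features, *Myh11* and *Des*. Keeping the contractile genes among the features gave 283 FGF8 and 186 BSA mural-like cells. Levels below are CPM of the summed UMIs of a class, and the ranges in parentheses are exact 95% intervals that cover counting error only.

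In mural-like cells every one of the 10 genes was higher than in the fibroblast-like cells of the same library. *Acta2*, the smooth muscle alpha actin, was at 5271 CPM in FGF8 (5196 to 5347) and 6015 CPM in BSA (5926 to 6106). In fibroblast-like cells it was at 220.1 CPM in FGF8 (217 to 224) and 237 CPM in BSA (232 to 242), so mural-like cells held 23.9-fold and 25.3-fold more. *Actg2*, the gamma actin of visceral smooth muscle, stood at 361 and 426 CPM in mural-like and at 6.80 and 7.34 CPM in fibroblast-like cells, FGF8 first. Each actin thus had nearly the same contrast between the classes in both libraries, and that of *Actg2* was the larger, at 53.1-fold and 58.0-fold.

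The myosin genes differed from each other in how far fibroblast-like cells shared them. *Myl9*, a regulatory light chain, was at 2012 CPM in FGF8 and 2471 CPM in BSA mural-like cells and at 136 and 242 CPM in fibroblast-like cells, a contrast of 14.8-fold and 10.2-fold. *Myh11*, the smooth muscle myosin heavy chain, was at 591 and 734 CPM in mural-like cells and at 1.75 and 0.703 CPM in fibroblast-like cells. Its UMIs in fibroblast-like cells numbered 122 in FGF8 and 25 in BSA, and 3 FGF8 cells held 50% of the 122. A *Myh11* UMI was seen in 1.63% of FGF8 fibroblast-like cells (1.22 to 2.12) and 1.11% of BSA ones (0.668 to 1.72). Neutrophil-like cells, which should lack it, had one in 1.67% (0.766 to 3.15) and 1.88% (0.388 to 5.38) of cells at median depths of 2422 and 3226 UMIs, against 18620 and 20071 in fibroblast-like cells. The share of fibroblast-like cells with *Myh11* was thus no higher than that of neutrophil-like cells, while 63 of the 122 FGF8 UMIs lay in 10 cells of a subcluster of shallow cells (subcluster 4).

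Among the genes for proteins on the actin filament, the tropomyosins were the most widely shared. *Tpm1* was found in 89.3% of FGF8 (88.2 to 90.4) and 87.4% of BSA fibroblast-like cells (85.7 to 88.9), and its mural-like level exceeded the fibroblast-like level only 4.39-fold and 5.94-fold. *Tpm2* showed contrasts of 5.52-fold and 7.13-fold. *Tagln* (transgelin) was at 2594 and 2559 CPM in mural-like and at 168 and 234 CPM in fibroblast-like cells. *Cnn1* (calponin) and *Lmod1* (leiomodin, which seeds actin filaments) were scarce outside mural-like cells, with 116 and 70 UMIs of *Cnn1* and 36 and 17 of *Lmod1* over all fibroblast-like cells. Even in mural-like cells, *Cnn1* UMIs were in only 14.2% of FGF8 (10.4 to 18.9) and 14.8% of BSA cells (10.0 to 20.8).

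*Des* (desmin) was at 516 CPM in FGF8 and 497 CPM in BSA mural-like cells, and at 1.02 and 0.928 CPM in fibroblast-like cells. Schwann-like cells (241 FGF8 and 124 BSA cells) also had *Des* UMIs, at 16.4 (12.3 to 21.5) and 32.0 CPM (24.9 to 40.6). In neutrophil-like cells *Des* was at 12.3 and 10.2 CPM, from 21 and 7 UMIs, so the FGF8 Schwann-like level was not clearly above theirs. A *Des* UMI was seen in 12.4% of FGF8 (8.56 to 17.3) and 20.2% of BSA Schwann-like cells (13.5 to 28.3), where *Rgs5* was at 27.9 and 77.2 CPM, with UMIs in 3.32% and 7.26% of cells. *Tagln* UMIs were likewise in 23.2% of FGF8 (18.1 to 29.1) and 45.2% of BSA Schwann-like cells (36.2 to 54.3). For both genes the share was higher in BSA, the deeper library of this class (median 15454 UMIs against 11679). The CPM levels were higher in BSA too, with *Tagln* at 49.5 CPM in FGF8 and 134 CPM in BSA. Within the sexes the log2 ratio of FGF8 over BSA was -1.82 and 1.33 for *Tagln* and -0.55 and 1.33 for *Des*, female calls first. BSA had only 18 male-called Schwann-like cells. In chondrocyte-like cells (132 and 52), *Tpm1* made up 73.5% and 88.5% of the UMIs of the 10 genes. This part was 68.5% and 43.1% in endothelial-like cells, drawn at a resolution of 0.2, and 37.5% and 55.3% in macrophage-like cells.

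**Figure D1:**
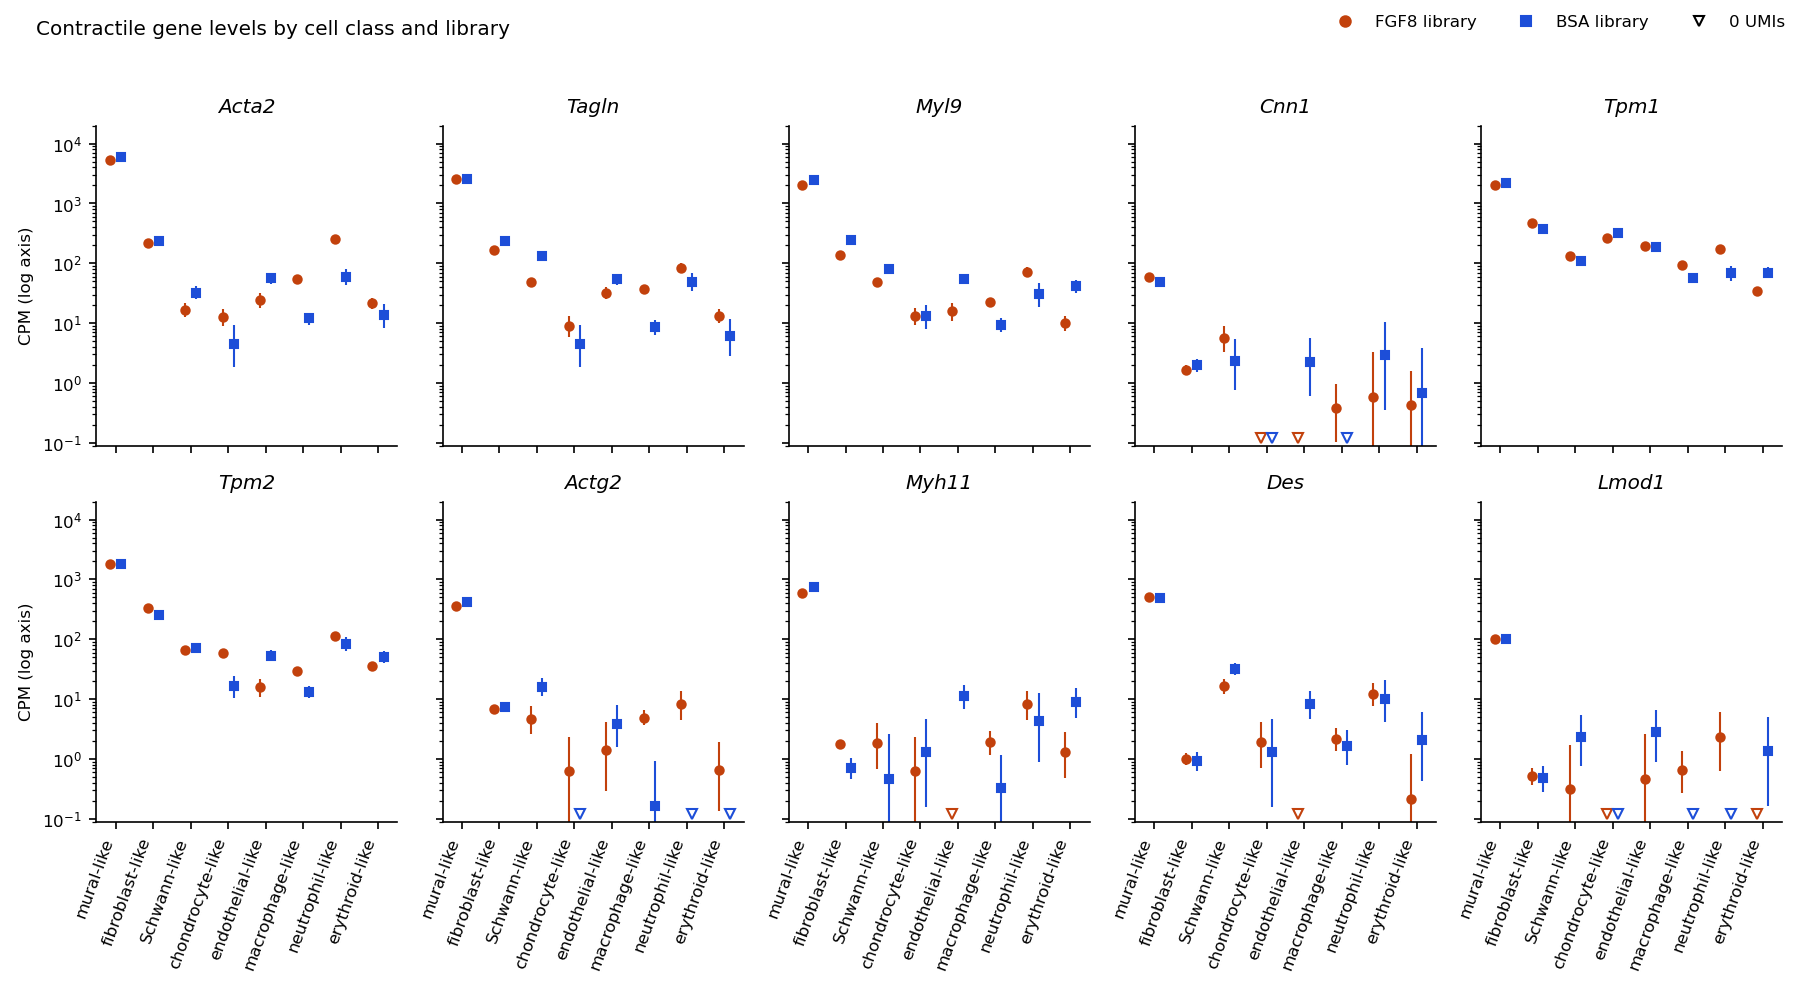
Level of each of the 10 genes (CPM, log axis) in 8 cell classes of the FGF8 library (circles) and the BSA library (squares), with bars for exact 95% counting intervals, and open triangles for 0 UMIs. All 10 genes peak in mural-like cells, and *Acta2* in FGF8 neutrophil-like cells (258 CPM, mostly from 6 cells) is as high as in fibroblast-like cells (220.1 CPM). *Des* is higher in Schwann-like and in neutrophil-like cells (12.3 and 10.2 CPM) than in fibroblast-like cells.

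Blood cells, which should lack *Acta2*, gave the background for this gene. *Acta2* was at 54.8 CPM in FGF8 and 12 CPM in BSA macrophage-like cells and at 21.4 and 13.8 CPM in erythroid-like cells. In neutrophil-like cells it was at 258 CPM in FGF8 and 59.6 CPM in BSA, but these values came from 440 and 41 UMIs, and 6 of 539 FGF8 cells held 71.1% of the 440. Shares of cells with an *Acta2* UMI were 14.8% (12.6 to 17.3) and 9.25% (6.88 to 12.1) in macrophage-like cells and 20% (16.7 to 23.7) and 12.5% (7.81 to 18.6) in neutrophil-like cells. Fibroblast-like cells were above these, at 44.1% in FGF8 (42.4 to 45.8) and 35.3% in BSA (33.0 to 37.6). After thinning every cell to 2000 UMIs, the shares were 16.0% (14.7 to 17.3) and 14.3% (12.6 to 16.1) in fibroblast-like cells and 4.66% and 3.1% in macrophage-like cells. Thinned neutrophil-like cells, the shallowest class, had shares of 16.0% (12.6 to 19.9) and 7.33% (3.72 to 12.7), so in FGF8 the share of fibroblast-like cells was no higher than theirs.

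The mixture of transcripts also differed between the classes. For each *Rgs5* UMI, mural-like cells held 1.10 *Acta2* UMIs in FGF8 and 0.860 in BSA, whereas fibroblast-like cells held 21.1 and 24.8. *Myh11* amounted to 11.2 and 12.2 UMIs per 100 *Acta2* UMIs in mural-like and to 0.793 and 0.296 in fibroblast-like cells. The *Acta2* of fibroblast-like cells was thus not in the ratio to *Rgs5* and *Myh11* that mural-like cells had. Blood cells also departed from this ratio, with 3.01 and 0.562 *Acta2* UMIs per *Rgs5* UMI in neutrophil-like and 2.29 and 1.70 in macrophage-like cells. Their *Myh11* amounted to 3.18 and 7.32 and to 3.45 and 2.74 UMIs per 100 *Acta2* UMIs. The source of the *Acta2* UMIs in fibroblast-like cells was not tested. *Kcnj8*, a pericyte potassium channel gene, was in 3.14% of the 318 FGF8 cells with 10 or more *Acta2* UMIs (1.52 to 5.71) and in 3.66% of the 1857 without (2.85 to 4.62). In BSA the shares were 2.78% of 144 cells (0.762 to 6.96) and 5.77% of 1110 (4.47 to 7.30). *Kcnj8* was itself low in the arterial smooth muscle-like cells described below, so these shares do not bear on transcripts of such cells. *Notch3*, a receptor gene of mural cells, was found more often in the *Acta2*-rich cells, in 12.9% against 8.67% of FGF8 and 18.1% against 10.8% of BSA cells. *Rgs5* was at 22.7 against 8.06 CPM in FGF8 (11.3% against 10.1% of cells) and at 12.9 against 9.24 CPM in BSA (9.03% against 7.21%). The *Acta2*-rich cells were the deeper ones, with medians of 33823 and 32668 UMIs against 14378 and 17003, and the part of depth in these shares was not tested. *Pdgfra*, a receptor gene of fibroblasts, was in 90.3% and 88.2% of these *Acta2*-rich cells.

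Most fibroblast-like *Acta2* came from few cells. Cells with 10 or more *Acta2* UMIs made up 9.57% of FGF8 and 8.40% of BSA fibroblast-like cells and held 81.0% and 85.5% of the *Acta2* UMIs. *Tagln* followed them, at 693 CPM in the *Acta2*-rich FGF8 cells against 61.5 CPM in those without *Acta2*, and at 966 against 102 CPM in BSA. *Actg2* was likewise at 37.2 against 0.863 CPM and at 46.1 against 0.519 CPM. *Myh11* and *Des* stayed scarce there, each with a UMI in no more than 2.78% of the *Acta2*-rich cells of either library. On these few UMIs they too were higher than in cells without *Acta2*. *Myh11* was at 4.38 against 1.79 CPM in FGF8 and 1.43 against 0.519 CPM in BSA. *Des* was at 1.28 against 1.02 CPM and at 4.49 against 0.260 CPM.

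Between the libraries, the 10 genes had no common direction in fibroblast-like cells. With 10 of 10 genes at 10 or more UMIs, 5 were higher and 5 lower in FGF8, and the median log2 ratio of FGF8 over BSA was -0.00054, against -0.07 over all 20054 such genes. No member had a log2 ratio below -1, which 5.13% of all genes had, and 1, *Myh11*, had one above 1, which 6.53% of all genes had.

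*Myl9* and *Tagln* were the members with the clearest lower level in FGF8. The log2 ratio of *Myl9* was -0.83 (-0.87 to -0.79), and it was -1.14 among female calls and -1.04 among male calls. For *Tagln* it was -0.48 (-0.52 to -0.44), with -0.67 and -0.73 within the sexes. *Tpm1* and *Tpm2* were higher in FGF8 instead, at 463 against 373 CPM and 327 against 254 CPM. Their log2 ratios were 0.31 (0.28 to 0.34) and 0.36 (0.33 to 0.40), and 0.18 and 0.23 among female calls and 0.30 and 0.34 among male calls. Subcluster 1, described below, made up 29.3% of FGF8 and 14.2% of BSA fibroblast-like cells and held 63.2% and 36.4% of the *Tpm2* UMIs. Within it *Tpm2* was level, at 423 and 422 CPM, and *Tpm1* was at 538 against 454 CPM. In the other subclusters both genes were higher in FGF8, except *Tpm1* in subcluster 2 (479 against 487 CPM).

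*Acta2* was nearly level between the libraries when all fibroblast-like cells were summed, with a log2 ratio of -0.11 (-0.15 to -0.07). Within each sex it was lower in FGF8, by a log2 ratio of -0.41 among female calls and -0.58 among male calls. The levels were 158 CPM in 684 FGF8 and 210.1 CPM in 1190 BSA female-called cells, and 240 CPM in 2127 FGF8 and 357 CPM in 297 BSA male-called cells. Male-called cells were thus higher than female-called cells in both libraries, and the FGF8 library held more of them. The direction of the pooled *Acta2* ratio also turned with the settings, which gave values between -0.58 and 0.24. *Actg2* had a log2 ratio of -0.11 (-0.33 to 0.11), and the intervals of *Cnn1* (-0.69 to 0.20), *Des* (-0.48 to 0.77) and *Lmod1* (-0.76 to 1.03) also held 0. Within the sexes, *Actg2* was at -0.39 (-0.80 to 0.02) and -0.50 (-0.88 to -0.09), *Cnn1* at 0.08 and -0.98 (-1.66 to -0.24), and *Des* at -1.70 (-3.42 to -0.30) and 1.70 (-0.24 to 4.78), female calls first. *Actg2* kept its sign in 8 of 16 alternative settings. *Myh11*, at 1.31 (0.68 to 1.99) on few UMIs, was at -0.05 under a stricter filter of cells. Its ratio was 0.60 among female calls and 0.32 among male calls.

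In mural-like cells, the members' log2 ratios lay between -0.31 and 0.25 when all cells were summed. Of the 10 genes, 3 were higher and 7 lower in FGF8, with a median log2 ratio of -0.08 against 0.02 over 13193 genes. None was below -1, as were 2.47% of all genes, and none above 1, as were 5.22%. The lowest ratios were -0.31 for *Myh11* (-0.40 to -0.22), -0.30 for *Myl9* (-0.34 to -0.25), -0.24 for *Actg2* (-0.35 to -0.12) and -0.19 for *Acta2* (-0.22 to -0.16). None of these 4 kept that direction in both sexes, since *Acta2* and *Actg2* were at 0.11 and 0.31 among female calls and at 0.0018 and 0.07 among male calls, and *Myl9* and *Myh11* at 0.07 and 0.26 in the female-called ones. Among female calls *Cnn1* was at 1.47 (1.09 to 1.85), *Tagln* at 0.60 (0.54 to 0.66), *Tpm2* at 0.40 (0.32 to 0.48) and *Des* at -0.36 (-0.56 to -0.17), where the male calls gave 0.07, 0.20, 0.03 and 0.05. The sexes rested on 60 FGF8 and 128 BSA female-called cells and on 156 and 36 male-called cells. A further 65 FGF8 and 18 BSA cells without a sex call entered only the summed ratios. *Acta2* was at 3200 and 3582 CPM in these, at 7036 and 6517 CPM in female-called and at 5277 and 5270 CPM in male-called cells. By contrast *Rgs5*, the pericyte regulator of G protein signalling, was lower in FGF8 in all cells, with 4786 against 6998 CPM and a log2 ratio of -0.55 (-0.58 to -0.52), and in both sexes (-0.64 and -0.67).

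**Figure D2:**
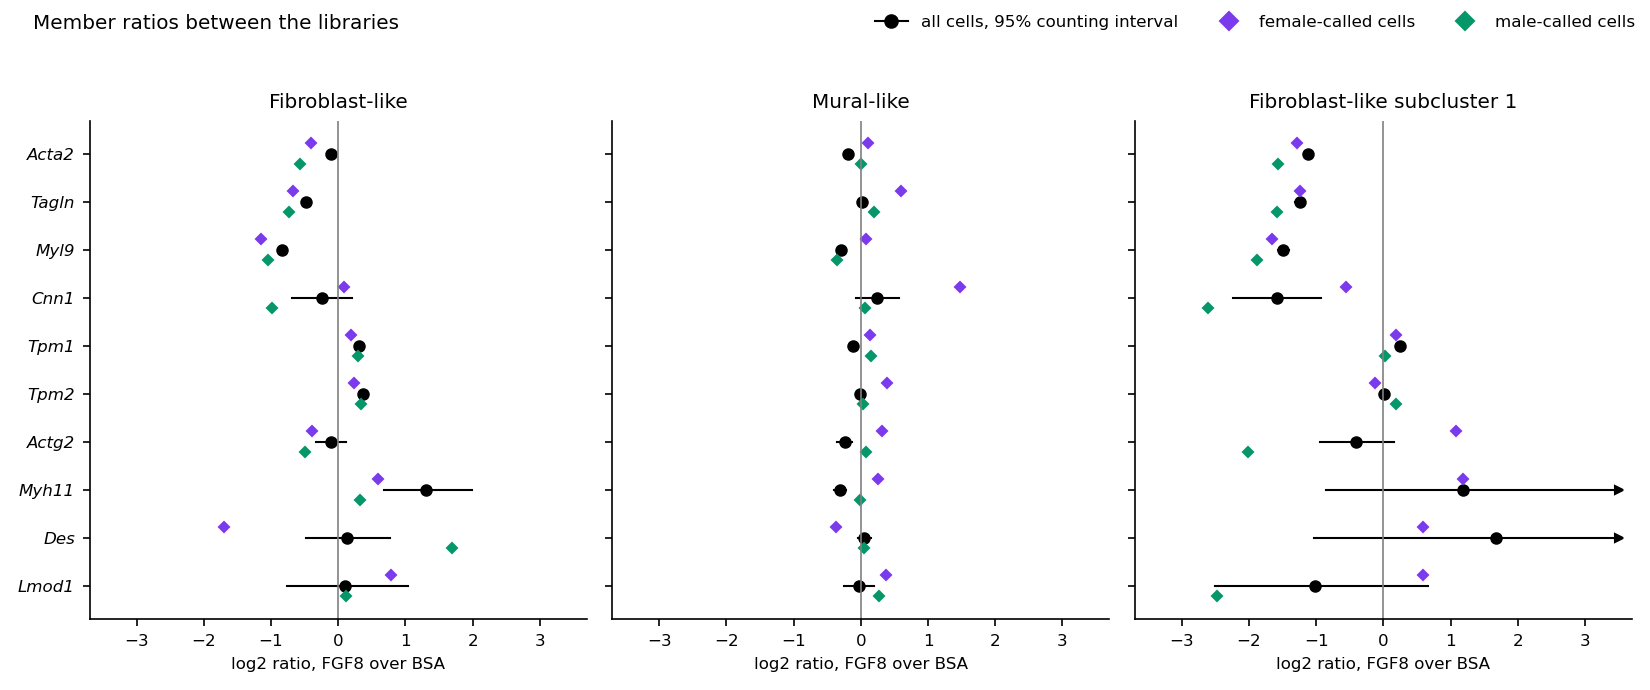
Log2 ratio of FGF8 over BSA for the 10 genes in fibroblast-like cells, mural-like cells and fibroblast-like subcluster 1, with bars for exact 95% counting intervals (arrows where a bar leaves the axis) and diamonds for the ratios within female-called and male-called cells. In subcluster 1, *Acta2*, *Tagln*, *Myl9* and *Cnn1* lie at -1.12, -1.25, -1.49 and -1.59, and the mural-like values lie between -0.31 and 0.25.

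Mural-like cells held 2 groups rich in contractile transcripts when they were re-clustered without these genes at a resolution of 0.5, a resolution chosen after a coarser one had split off only cycling cells. Subcluster 4 (27 FGF8 and 21 BSA cells), the only one at this resolution to take an arterial smooth muscle-like name from its markers, had *Acta2* at 11783 and 11293 CPM and *Myh11* at 1818 and 2261 CPM. *Kcnj8* was low there, at 46.7 and 32.7 CPM, against 461 and 624 CPM in subcluster 0, the largest with 90 and 68 cells. Subcluster 2 (44 and 23 cells), led by *Cxcl1* and *Il6*, genes of a chemokine and a cytokine, had *Acta2* at 9273 and 12007 CPM and *Actg2* at 962 (880 to 1049) and 1514 CPM (1392 to 1643). Its *Cnn1* was at 186 and 255 CPM, where subclusters 0, 1 and 3 lay between 5.81 and 30.1 CPM, and in subcluster 4 it was at 172 and 52.8 CPM. The remaining subclusters had *Acta2* between 3263 and 4897 CPM, so *Acta2* differed more between these subclusters than between the libraries.

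Fibroblast-like cells were re-clustered without the contractile lists, the sex-linked genes and the genes of the study's supplementary tables, which gave 6 subclusters. None of them took a marker name of its own, and they are called by number and leading genes. *Acta2* was highest in subcluster 5, the smallest, with 80 FGF8 and 38 BSA cells, led by *Corin*, a membrane protease gene, *Sox18* and *Alx4*, genes of transcription factors. It was at 2246 CPM in FGF8 (2158 to 2336) and 1390 CPM in BSA (1309 to 1476), and 50% and 36.8% of the cells held an *Acta2* UMI. *Tagln* was at 1447 and 1196 CPM, *Myl9* at 724 and 723 CPM and *Actg2* at 195 (170.0 to 223) and 185 CPM (156 to 217). With 2.41% and 2.22% of the fibroblast-like cells, subcluster 5 held 45.3% and 55.2% of their *Actg2* UMIs and 16.1% and 12.9% of their *Acta2* UMIs.

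The mural marker list summed to 2243 CPM in FGF8 and 2295 CPM in BSA cells of subcluster 5, above the 987 and 1355 CPM of all fibroblast-like cells and below the 12494 and 16046 CPM of mural-like cells, and 2 and 3 of its 14 genes had no UMI. The 12 arterial smooth muscle markers summed to 406 and 363 CPM, against 35.8 and 61.3 CPM in all fibroblast-like and 583 and 878 CPM in mural-like cells, with 6 and 4 of them at 0. The pericyte list, which shares genes with the mural list, summed to 117 and 132 CPM, against 7217 and 10138 CPM in mural-like cells. *Myh11*, *Des* and *Kcnj8* had 0 UMIs in both libraries, which allows up to 2.72 CPM in FGF8 and 3.84 CPM in BSA for 3 counts per library, whereas mural-like cells had *Myh11* at 591 and 734 CPM. *Rgs5* was at 2.72 and 2.56 CPM from 3 and 2 UMIs. *Pdgfra* was at 236 and 237 CPM, against 193 and 220.0 CPM in all fibroblast-like cells, and *Notch3* was at 29.1 (19.9 to 41.0) and 20.5 CPM (11.7 to 33.3), against 6.88 and 9.73 CPM. The *Acta2* ratio in subcluster 5 was 0.69 (0.59 to 0.80), but 0.15 among female calls and 1.28 among male calls.

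Subcluster 1 (975 FGF8 and 243 BSA cells), led by *Prg4*, the gene of the joint lubricant lubricin, *Mmp3* and cell cycle genes, held the largest part of the fibroblast-like *Acta2*, 55.3% of the UMIs in FGF8 and 50% in BSA. It made up 29.3% and 14.2% of the fibroblast-like cells. Its *Acta2* level was 250 CPM in FGF8 (244 to 255) and 542 CPM in BSA (526 to 558), a log2 ratio of -1.12 (-1.17 to -1.06). *Tagln* was at 164 against 390 CPM (-1.25, -1.31 to -1.18) and *Myl9* at 82.6 against 231 CPM (-1.49, -1.57 to -1.40). All 3 were also lower in FGF8 within both sexes, between -1.24 and -1.65 among female calls and between -1.57 and -1.88 among male calls. *Tpm1* (0.24, 0.19 to 0.30) and *Tpm2* (0.0021, -0.05 to 0.06) did not share this difference. Of the mural genes, *Rgs5* was also lower in FGF8, at 5.10 against 11.8 CPM, and without the cells that held a UMI of *Rgs5*, *Kcnj8*, *Abcc9* or *Cspg4* the log2 ratios were -1.27 for *Acta2*, -1.27 for *Tagln* and -1.59 for *Myl9*.

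Over all 10 genes, the median log2 ratio in subcluster 1 was -0.71 against -0.07 over 16958 genes. A log2 ratio below -1 was found for 5 of the 10 (9.83% of all genes), namely *Acta2*, *Tagln*, *Myl9*, *Cnn1* and *Lmod1*, and one above 1 for 2 of the 10 (5.34% of all genes), *Myh11* and *Des*. The ratio of *Myh11* rested on 20 FGF8 and 2 BSA UMIs, that of *Des* on 14 and 1, and that of *Lmod1* on 13 and 6. This subcluster was singled out after its values were seen. The share of its cells with 10 or more *Acta2* UMIs was 19.8% in FGF8 (17.3 to 22.4) and 24.7% in BSA (19.4 to 30.6), at median depths of 34789 and 31558 UMIs. With every cell thinned to 5000 UMIs, 13.1% of FGF8 and 21.0% of BSA cells held 3 or more *Acta2* UMIs. The level in the cells with 10 or more, unthinned, was 943 against 1701 CPM, and in the cells with fewer it was 44.2 and 43.5 CPM.

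**Figure D3:**
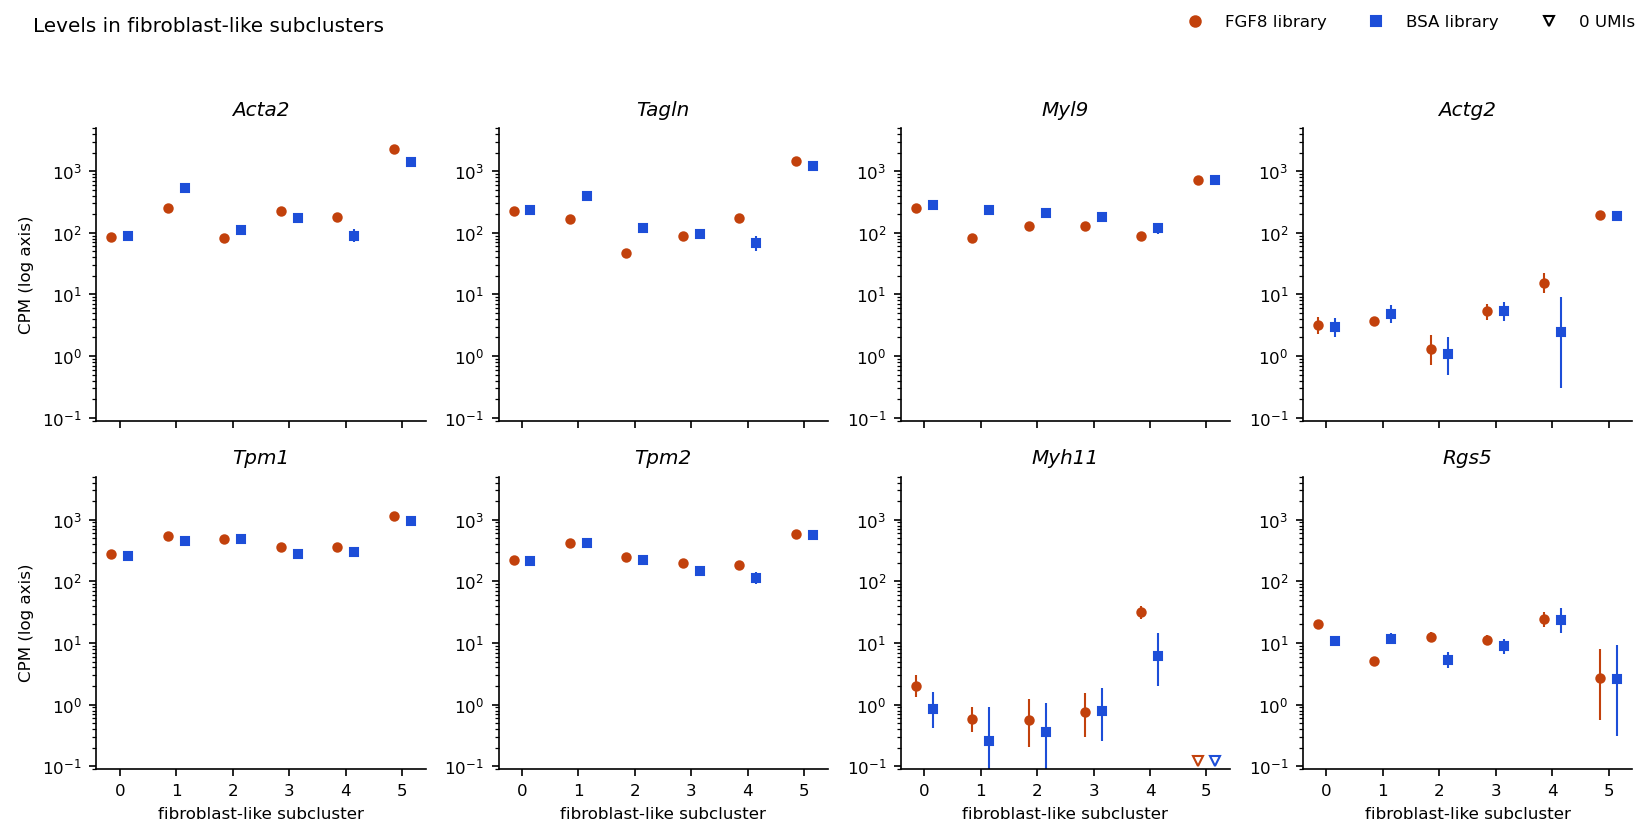
Levels of 7 of the 10 genes and of *Rgs5* (CPM, log axis) in fibroblast-like subclusters 0 to 5 of the FGF8 library (circles) and the BSA library (squares), with bars for exact 95% counting intervals and open triangles for 0 UMIs. *Acta2*, *Tagln* and *Actg2* are highest in subcluster 5, where *Myh11* has no UMI, and subcluster 1 shows the widest gap between the libraries for *Acta2* and *Myl9*.

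The contractile level in subcluster 1 varied with *Prg4*. In FGF8, *Acta2* was at 365 CPM (350.3 to 380.0) in 197 cells without a *Prg4* UMI, 386 CPM (374 to 399) in 272 cells with 1 to 9, and 135 CPM (130.1 to 141) in 506 cells with 10 or more. In BSA it was at 723 CPM (697 to 750.3) in 131 cells, 477 CPM (446 to 509) in 59 cells and 232 CPM (211 to 254) in 53 cells. *Prg4*-rich cells thus had the least *Acta2* in both libraries, and the FGF8 library held more of them. *Acta2* was also lower in FGF8 at each level of *Prg4*. *Myl9* was likewise lowest in *Prg4*-rich cells, at 38.8 CPM in FGF8 and 152 CPM in BSA *Prg4*-rich cells against 136 and 270 CPM in cells without *Prg4*. *Tagln* was at 70.8 and 145 CPM against 267 and 592 CPM. *Tpm2* ran the other way, with 442 and 482 CPM in *Prg4*-rich cells against 398 and 397 CPM in cells without *Prg4*, and *Tpm1* lay between 422 and 596 CPM throughout. The median depth of these 6 groups of cells lay between 28314 and 37571 UMIs.

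**Figure D4:**
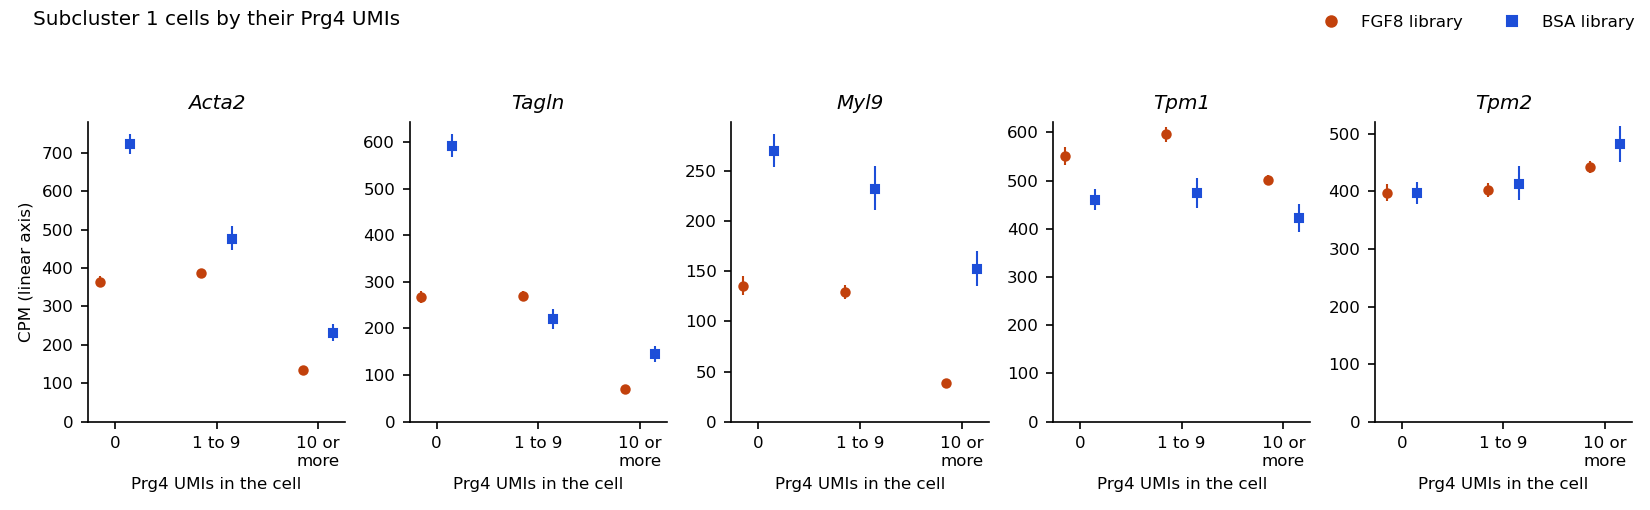
Level of 5 of the 10 genes (CPM, linear axis from 0) in subcluster 1 cells with 0, 1 to 9 and 10 or more *Prg4* UMIs, in the FGF8 library (circles) and the BSA library (squares), with bars for exact 95% counting intervals. *Acta2*, *Tagln* and *Myl9* are lowest in the cells with 10 or more *Prg4* UMIs, whereas *Tpm1* and *Tpm2* differ less.

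In the other subclusters the direction varied. Subcluster 2, led by *Fmod* and *Comp*, genes of tendon and cartilage matrix, had *Tagln* at 46.1 against 119 CPM (-1.36, -1.52 to -1.21) and *Acta2* at 82.9 against 112 CPM (-0.44, -0.57 to -0.30). Both were lower in FGF8 within each sex, *Tagln* at -2.25 and -1.20 and *Acta2* at -1.05 and -1.0. Subcluster 0, led by *Tnfrsf19* and *Nrg1*, had *Acta2* at 85.5 and 88.6 CPM and *Tagln* at 221 and 233 CPM. Subcluster 3, led by *Lpl* and *Dlk1*, had *Acta2* at 223 and 175 CPM, a log2 ratio of 0.35 (0.25 to 0.46) that was -0.25 among female calls and 0.14 among male calls. Subcluster 4 held the cells of few UMIs (medians of 2487 and 2480), was led by *Lars2* and genes with long introns, and had *Acta2* at 179 against 90.0 CPM (0.99, 0.62 to 1.37) and *Tagln* at 171 against 67.5 CPM (1.34, 0.92 to 1.78). Both were higher in FGF8 in all its cells but lower among female calls, at -0.17 and -0.49. Subcluster 4 also contributed 51.6% of the fibroblast-like *Myh11* UMIs in FGF8 and 20% in BSA.

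The related lists differed in direction, and are read beside the 44.0% of all genes that were higher and the 56.0% that were lower in FGF8 fibroblast-like cells. Of 18 genes of cytoplasmic actin and myosin, 13 were higher in FGF8 fibroblast-like cells and 5 lower, with a median log2 ratio of 0.35. *Tagln2* (0.62), *Zyx*, the gene of a focal adhesion protein (0.58), and *Actg1*, a cytoplasmic actin gene (0.53), were the highest, and *Myl12b* (-0.39), *Myh10* (-0.17) and *Cnn3* (-0.13) the lowest. Of 18 measured genes among 20 of other smooth muscle proteins, 4 were higher and 14 lower, with a median of -0.16. *Cald1*, the gene of caldesmon (0.35), *Pdlim7* (0.19) and *Csrp2* (0.10) led this list, and *Itga8* (-1.19), *Ppp1r14a*, which encodes an inhibitor of myosin phosphatase (-1.13), and *Pdlim3* (-1.04) closed it.

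Matrix genes of myofibroblasts were mostly lower in FGF8 fibroblast-like cells. Of 24 genes of matrix and TGF-beta signalling, 19 were lower and 5 higher, with a median of -0.34. The collagen genes *Col1a1* (6236 against 13325 CPM, -1.10) and *Col1a2* (-0.88) and *Cthrc1* (-0.86) were the lowest, and *Ltbp2* (0.68) and *Tnc* (0.32) were among the highest. Of 4 regulators, *Srf* was higher (0.36), *Mrtfa* was near level (-0.05) and *Mrtfb* was lower (-0.57), and the median was -0.28. Skeletal muscle transcripts were near 0, since all 14 genes of their list summed to 9.37 and 8.95 CPM in fibroblast-like cells. Of the 7 with at least 10 UMIs there, 4 were higher and 3 lower in FGF8, and the log2 ratios were 0.96 for *Mylpf* (0.47 to 1.47) and -0.57 for *Tnnt3* (-0.90 to -0.24).

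In mural-like cells the matrix list went the other way, with 20 of 24 genes higher in FGF8, 4 lower and a median log2 ratio of 0.24, where 52.1% of all genes were higher. *Ltbp2* (3.91, 2.50 to 5.83) rested on 76 and 4 UMIs, and *Cthrc1* (2.29), *Ccn2*, a target gene of TGF-beta (1.48), and *Tgfbi* (1.22) also lay above 1. These 4 were named after their values were seen. Among fibroblast genes, *Dcn* was at 460 against 269 CPM in FGF8 and BSA mural-like cells (0.77). Its ratio was 0.17 among female calls and 2.22 among male calls. *Pdgfra* was at 20 against 7.69 CPM (1.38), whereas *Col1a1* was level at 1250 and 1262 CPM (-0.01). The fibroblast marker list summed to 6743 and 6624 CPM. The part of fibroblast transcripts in the result was not tested. The lists of other smooth muscle genes and of cytoplasmic actomyosin were near level there, with medians of -0.08 and 0.0049.

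**Figure D5:**
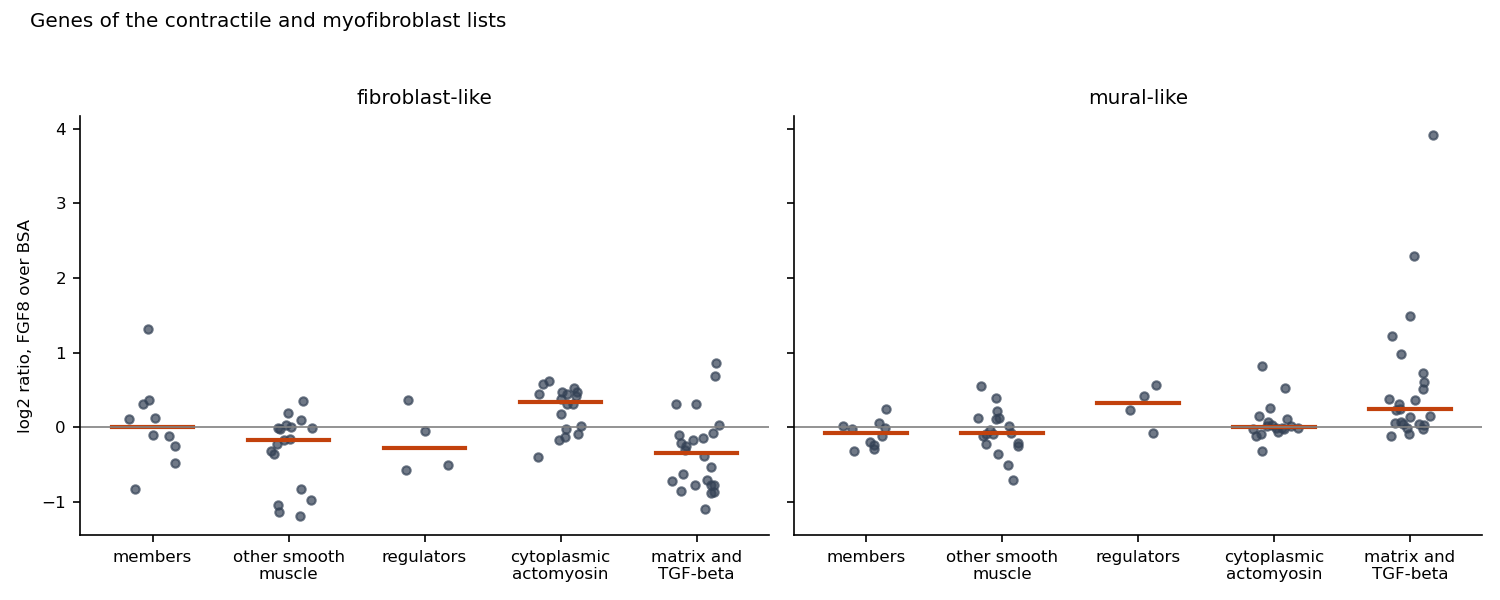
Log2 ratio of FGF8 over BSA for the genes with at least 10 UMIs in the 10-gene set and in 4 related lists, in fibroblast-like and mural-like cells, with 1 point per gene and a line at the median. In fibroblast-like cells the cytoplasmic actomyosin genes lie mostly above 0 (median 0.35) and the matrix genes mostly below (median -0.34), and in mural-like cells the matrix genes lie mostly above 0 (median 0.24).

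Across the 14 combinations of named class and library, the genes whose level followed *Acta2* most closely were *Ano1*, a chloride channel gene (Pearson r of log2(CPM + 1) 0.968), *Pcdh19* (0.964), *Slc16a12* (0.960), *Vwce* (0.959) and *Mylk*, the gene of myosin light chain kinase (0.957), among 12629 genes. The other members ranged from 0.757 (*Des*) to 0.950 (*Tagln*). Mural-like cells set most of these values, since they are the highest points for each of the 10 genes, and the points of a library share its depth and free RNA.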

How the data were processed

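Single cells of 2 libraries, 1 per treatment, were measured by droplet RNA sequencing. The authors deposited raw UMI counts per gene and barcode, not normalised. The submitters' notes name Cell Ranger 9.0.0, Seurat and the builds GRCm39 and mm10, with no role for each. Cells were kept if over 200 and under 7500 genes were detected and mitochondrial UMIs stayed below 15%. Libraries were integrated in R 4.3.3 (Seurat 5.3.0, sctransform 0.4.2) on 3000 variable features, of which 2974 remained without the contractile lists, with 30 principal components, a resolution of 0.05 and seed 42. Clusters took X-like names from marker lists, with at least 3 markers detected. Fibroblast-like subclusters (resolution 0.2) used 2645 features, without contractile genes, X- and Y-linked genes and genes of the study's supplementary tables.

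UMIs were summed per class and library and given as CPM, with exact Poisson intervals, exact conditional intervals for ratios and Clopper-Pearson intervals for shares, all at 95%. With 1 library per treatment no test was made. Ratios are given for genes that reached 10 UMIs in both libraries together. Sex was called per cell from sex-linked transcripts, and cells without a clear call stayed uncalled. For thinned shares each cell was drawn down to 2000 UMIs, which left out 781 FGF8 and 343 BSA cells. Scrublet (scanpy 1.11.5) called 0 doublets in both libraries and so did not work here; as an alternative the highest-scoring 420 FGF8 and 110 BSA barcodes were left out. The calculations, run in Python 3.11.15, were tested on simulated counts.

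Besides the 10 genes, the text names, from each related list, up to 3 of the highest and 3 of the lowest ratios among genes with at least 100 UMIs in fibroblast-like cells, 5 genes most like *Acta2*, and class markers; other genes are marked as named after their values were seen. One gene that this rule names is not reported here. The members, lists and comparisons were chosen with earlier results of these data known.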

Additional observations from a re-analysis of the deposited data

Results flagged for a closer look

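The direction of the difference between the libraries was opposite in fibroblast-like and mural-like cells for 2 of the 10 genes, counting those whose counting intervals left out 0 in both classes. *Tpm1* had a log2 ratio of FGF8 over BSA of 0.31 in fibroblast-like and -0.12 in mural-like cells, and the mural-like value was 0.14 among female calls and 0.15 among male calls. *Myh11* had a log2 ratio of 1.31 in fibroblast-like cells, on 122 and 25 UMIs, and of -0.31 in mural-like cells. Within the sexes the fibroblast-like value was 0.60 (-0.55 to 1.73) and 0.32 (-0.90 to 1.83), female calls first, so both intervals held 0. Of the 122 UMIs, 50% lay in 3 cells, a clustering that the counting interval does not cover. With 1 library per treatment, the difference between the classes was not tested for either gene.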

How the results depend on the processing

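The median log2 ratio of the 10 genes lay between -0.19 and 0.27 in fibroblast-like cells over 17 alternatives, on both sides of 0. In mural-like cells it lay between -0.19 and 0.29 over 14, with 0.29 among female calls and 0.062 among male calls against -0.08 in all. In subcluster 1 it lay between -1.58 and -0.26 over 9, with -1.58 in male-called cells, of which BSA had 46. In fibroblast-like cells, *Tagln* (-0.73 to -0.17), *Myl9* (-1.14 to -0.52), *Tpm1* (0.18 to 0.39) and *Tpm2* (0.14 to 0.43) kept their sign in 16 of 16 alternatives. *Acta2* kept it in 11, and was at 0.24 under the stricter filter (500 to 6000 detected genes, below 10% mitochondrial UMIs), 0.12 and 0.07 when thinned to 2000 and 5000 UMIs, 0.03 with cells weighted equally and 0.16 without cells with mural transcripts. *Myh11* turned to -0.045 in fibroblast-like cells under the stricter filter. In subcluster 1, *Myh11* turned to -1.58 and *Des* to -1.80 in male-called cells, and *Myh11* to -0.60 without cells with mural transcripts. The causes were not tested. *Acta2*, *Tagln* and *Myl9* were lower in FGF8 subcluster 1 in 9 of 9 alternatives. The settings for subcluster 1, the removal or equal weighting of fibroblast-like subclusters, the *Prg4* split and the mural resolution of 0.5 were chosen after seeing the data. At a resolution of 0.2 for all cells no cluster took the fibroblast-like name, so that alternative gave no fibroblast-like value. Leaving out a replicate was not possible with 1 library per treatment. No paired analysis was possible because each treatment has 1 library. Depth limits *Cnn1*, *Lmod1*, *Des* and *Myh11* in fibroblast-like cells, each with no more than 122 UMIs in a library.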
